A study of Mus musculus with 4 samples.

Results

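The genes for the subunits and helpers of the constitutive proteasome were followed across 4 samples of mouse peritoneal macrophages. They were taken from the array's gene annotation by name, as every symbol made of Psma, Psmb, Psmc or Psmd and a number, and Psme1 to Psme4, with the interferon-induced Psmb8, Psmb9 and Psmb10 left out. The rule took 41 symbols, of which 40 had a probe set naming a single gene, out of 18193 genes with such a probe set. Psme2 had none and has no value here. Of the 40 genes, 39 passed the level floor explained below. By function, 37 of these are subunits or activators of the constitutive proteasome or chaperones of its assembly, the last being Psmd5, Psmd9 and Psmd10. Psma8 belongs to the core particle of the testis, and Psmc3ip, a meiotic recombination factor, carries the name of a subunit it was found to bind. Psmb11, which belongs to the thymus proteasome, lay below the floor with values between 5.60 and 6.22.

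The macrophages had been drawn into the peritoneal cavity of mice by thioglycolate, an irritant, and were then kept on slides for 18 hours. There were 4 groups with 1 array each: wild type and Dap12-KO macrophages, either left untreated or given interleukin-4 (IL-4). DAP12, encoded by Tyrobp, is a signalling adaptor of myeloid receptors, and the study asked how its loss alters macrophage expression at rest and with IL-4, a cytokine of alternative activation. The labels give no strain, age, sex or number of mice, and do not say how the gene was disrupted or whether both samples of a genotype came from different mice.

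The proteasome is the cell's main machine for degrading proteins tagged with ubiquitin. Its core particle is a barrel of alpha rings, which gate the entrance, and beta rings, which hold the cutting sites. A regulatory particle sits on the barrel, with a base of ATPases that unfold the substrate and a lid that removes the ubiquitin chain, and other activators can take its place. In macrophages the same machine turns over signalling proteins and makes the peptides shown on MHC class I. Proteasome genes are known to be transcribed in concert, with NFE2L1 raising all of them when the proteasome is inhibited.

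Promoters are shown because most genes of the complex differed in the same direction, as described below. RefSeq promoters (GRCm38.p6, 250 bases before to 50 after the start) were at hand for 33 of the 40 genes. Both strands were searched for TGACNNNGC, the core of the antioxidant response element that NFE2L1 and NFE2L2 bind, for the CCAAT box CCAAT, and for CCGGAAG, a site of ETS factors. No matches of different motifs overlapped in these promoters. The ETS letters were in 13 of 33 proteasome genes, which is 39.4%, against 9.93% of all 27025 genes with a promoter in the table. The 13 were Psma6, Psmc1, Psmc2, Psmc3ip, Psmc6, Psmd11, Psmd12, Psmd13, Psmd2, Psmd4, Psmd6, Psme3 and Psme4. Psmc3ip and Psme4 read higher, by 0.07 and 0.09 log2 units, on the untreated array labelled Dap12-KO than on that of wild type. A link between the letters and the differences was not tested. The antioxidant response element was in 6 of 33, Psmb5, Psmb6, Psmc6, Psmd12, Psmd9 and Psme4, which is 18.2% against 14.0% of all genes. The CCAAT box was in 14 of 33, or 42.4% against 41.1%. The promoters of 4 genes follow, from the lid, the catalytic sites and the ATPases, 5′ to 3′ along the gene, with every match in capitals. The first, of the lid gene Psmd12 (chr11:107479278-107479577, plus strand), holds the antioxidant response element and the ETS letters, both on the opposite strand. The second, of the lid gene Psmd11 (chr11:80428365-80428664, plus strand), holds the ETS letters. The promoter of the catalytic subunit Psmb5 (chr14:54617946-54618245, minus strand) holds the antioxidant response element, and that of the ATPase Psmc5 (chr11:106255935-106256234, plus strand) holds none of the 3 motifs. A match describes these letters and no binding.
Psmd12: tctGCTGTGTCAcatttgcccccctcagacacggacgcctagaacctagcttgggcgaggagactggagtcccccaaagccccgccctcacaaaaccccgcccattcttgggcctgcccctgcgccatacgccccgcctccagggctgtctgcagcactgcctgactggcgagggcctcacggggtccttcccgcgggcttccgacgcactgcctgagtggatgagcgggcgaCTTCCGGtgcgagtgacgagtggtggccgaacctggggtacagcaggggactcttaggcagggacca
Psmd11: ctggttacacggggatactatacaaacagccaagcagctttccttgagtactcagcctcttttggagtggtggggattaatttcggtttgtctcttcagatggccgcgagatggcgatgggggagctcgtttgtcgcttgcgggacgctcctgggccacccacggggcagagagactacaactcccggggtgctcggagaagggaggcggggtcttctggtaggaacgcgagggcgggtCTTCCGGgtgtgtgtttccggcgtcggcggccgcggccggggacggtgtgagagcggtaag
Psmb5: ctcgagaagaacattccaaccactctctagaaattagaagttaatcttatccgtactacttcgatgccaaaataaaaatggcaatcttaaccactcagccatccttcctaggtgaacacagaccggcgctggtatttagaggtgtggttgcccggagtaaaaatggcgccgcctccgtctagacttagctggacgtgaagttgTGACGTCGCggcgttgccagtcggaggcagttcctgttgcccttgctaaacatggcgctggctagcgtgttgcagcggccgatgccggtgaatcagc
Psmc5: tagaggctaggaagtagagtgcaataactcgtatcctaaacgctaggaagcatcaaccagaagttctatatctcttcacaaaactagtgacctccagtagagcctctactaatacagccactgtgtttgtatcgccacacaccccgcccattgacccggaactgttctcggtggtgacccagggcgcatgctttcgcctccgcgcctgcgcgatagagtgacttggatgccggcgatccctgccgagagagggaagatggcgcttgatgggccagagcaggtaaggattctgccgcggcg

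All values are log2 probe set values, and the brightest single-gene probe set stands for a gene. A gene was kept where at least 1 array reached a floor of 6.39, the median over all values, and 12767 genes were. With 1 array per group a difference between arrays has no test, and the words higher and lower name a sign only. The IL-4-treated array labelled Dap12-KO stood apart: the middle 50% of its values spanned 2.54 log2 units against 3.19 to 3.25 on the other arrays, and bright genes read lower on it. Each difference is therefore also given after subtracting the level trend, the median difference of the 500 genes nearest in mean level. Tyrobp, the targeted gene, read 14.39 and 14.13 on the wild type arrays and 14.03 and 13.27 on the arrays labelled Dap12-KO, so its signal does not bear out the label, and where its probes lie relative to the disrupted part is not known. Every direction between genotypes rests on the labels. All 8 macrophage markers passed the floor, while list means of markers of 6 other cell types lay between 5.58 and 8.32. Of those, 16 of 28 measured markers passed the floor. In RNA of whole samples, fewer cells of a type and less RNA per cell cannot be told apart.

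Every one of the 37 constitutive genes was well above the floor on each array, with values between 8.59 and 13.98. Over the 4 arrays a gene's highest and lowest value differed by 0.82 at the median, with a range of 0.40 to 1.70 over the genes. The median gene of the same level range, of which there were 5062, spanned 0.90. In 36 of the 37 genes the lowest value was on the IL-4-treated array labelled Dap12-KO, as it was for 82.2% of genes of that level range. The order below it was shared as well: both arrays labelled Dap12-KO read below both wild type arrays in 34 of the 39 genes, against 31.8% of all genes tested and 46.1% of genes of the same level range. After cyclic loess, which puts the arrays onto a common level trend, this held for 24 of 39 genes (61.5%) against 21.1% of all genes tested.

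**Figure D1:**
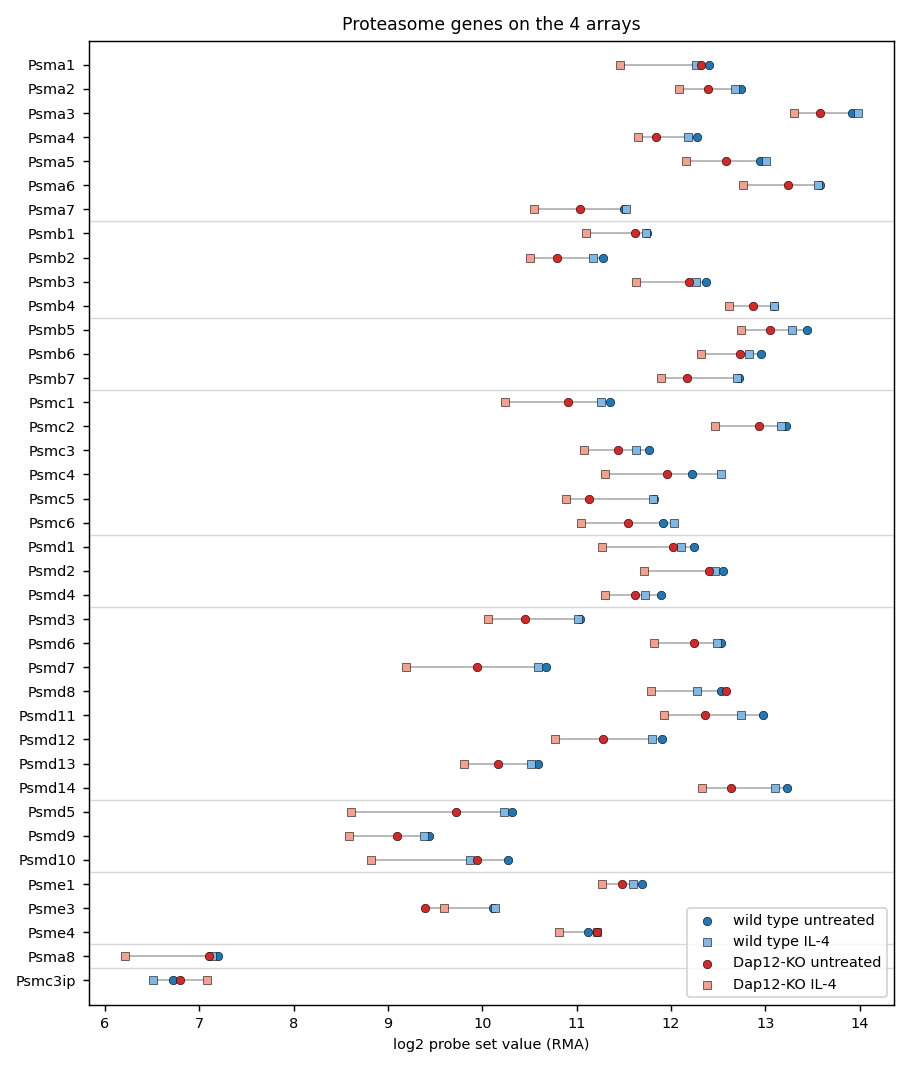
Log2 probe set values (horizontal axis) of the 39 proteasome genes past the level floor (rows, grouped by role), with a point for each of the 4 arrays and a grey bar from the lowest to the highest. Points of both wild type arrays lie close together in most rows, the untreated array labelled Dap12-KO to their left, and the IL-4-treated one at the left end in 36 of the 37 constitutive genes.

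Without treatment, proteasome genes read slightly and almost uniformly lower on the array labelled Dap12-KO than on the wild type array. Of 39 genes, 36 had a negative difference, against 47.3% of all genes tested. The median difference was -0.33, or 20.7% less signal, while the median of all genes was 0.03. Among genes of the same level range 57.7% had a negative difference, with a median of -0.08, and 13.5% were at least 1.5-fold lower. None of the 39 genes was 2-fold lower or higher, where 3.41% and 3.12% of all genes tested were, and 8 were at least 1.5-fold lower, where 9.78% were. The differences were small and close together, with a standard deviation of 0.20 among the 37 constitutive genes against 0.58 among the genes of their level range. After subtraction of the level trend the median was -0.27, and 36 of 39 genes lay below the trend, against 49.9% of all genes. Marker lists of some other cells differed between the same arrays: the B cell list, with 4 of 4 measured markers past the floor, had a mean of 7.66 in wild type and 8.32 on the array labelled Dap12-KO, and the mast cell list, with 3 of 5, had 6.55 and 7.19. The neutrophil list had 6.85 and 6.74, the eosinophil list 5.58 and 5.63, and the T and NK cell list 6.24 and 6.21. The mesothelium and fibroblast list had 5.82 and 5.72. The macrophage list had 12.55 and 12.90, but its markers were not alike. Cd14 (13.65 and 12.97) and Itgam (10.82 and 10.49) read lower and the others higher, most of all Mertk (9.32 and 11.29). The part of these cell types in the result was not tested.

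In the core particle all 14 constitutive genes had a negative difference in the untreated comparison, each by its brightest probe set. The alpha ring had a median of -0.36 and a range of -0.47 to -0.09. Psma7 read 11.50 in wild type and 11.03 on the array labelled Dap12-KO, and Psma1 at the other end read 12.40 and 12.32. Psma1 lay 0.00 from its level trend. Only 1 of its 3 probe sets past the floor was lower, and the dimmer ones differed by 0.08 and 0.05. Among the structural beta subunits, Psmb2 stood out with 11.28 against 10.79, while Psmb1 differed by -0.12. Dimmer probe sets of Psmb1 past the floor differed by -0.03 and 0.17. The 3 catalytic subunits were all lower on the array labelled Dap12-KO. Psmb7, the trypsin-like site, read 12.72 against 12.17, which is 31.8% less signal. Psmb5, the chymotrypsin-like site and the target of bortezomib, read 13.44 against 13.05, or 23.6% less. Psmb6, the caspase-like site, read 12.96 against 12.73.

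In the regulatory particle the 6 ATPases, which unfold substrates, had a median of -0.35 and ranged from -0.69 to -0.26. Psmc5 had the lowest of these, with 11.82 in wild type and 11.13 on the array labelled Dap12-KO, while Psmc4 read 12.22 and 11.96. The base scaffolds Psmd1 and Psmd2 and the ubiquitin receptor Psmd4 were among the smaller differences of the complex, at -0.22, -0.14 and -0.28. The lid stood lowest of the subunit groups, with a median of -0.59. Of its genes 7 of 8 lay below the level trend, as did all genes of the ATPases, the beta subunits and the base. Psmd7, the inactive partner of the lid's deubiquitinase, read 10.67 in wild type and 9.94 on the array labelled Dap12-KO, a difference of -0.73. Psmd14, the deubiquitinase itself, read 13.23 and 12.64. The lid scaffold genes Psmd12, Psmd11 and Psmd3 were lower by a similar amount, with differences of -0.63, -0.61 and -0.59. Psmd8 was the exception of the lid, at 12.53 and 12.59. With IL-4 the ATPases stood lowest of the subunit groups instead, with a median of -0.95, against -0.80 for both the lid and the alpha ring. That the lid differed more than other subunits without treatment was not tested.

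Assembly chaperones help to build the regulatory particle, and activators can take its place. The activators were less alike, with a standard deviation of 0.41 against 0.15 among the chaperones. The 3 chaperones of the base, Psmd5, Psmd9 and Psmd10, were all lower, with Psmd5 at 10.31 in wild type and 9.72 on the array labelled Dap12-KO. Of the activators, the nuclear Psme3 read 10.11 and 9.40, among the lowest of all members with a difference of -0.72. Psme1, an interferon-inducible activator, differed by -0.20. Psme4, known for histone degradation in spermatogenesis, had a small positive difference, at 11.12 and 11.22, but 3 of its 5 probe sets past the floor were lower. Psma8 and Psmc3ip, which are no part of the constitutive particle, differed by -0.10 and 0.07.

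**Figure D2:**
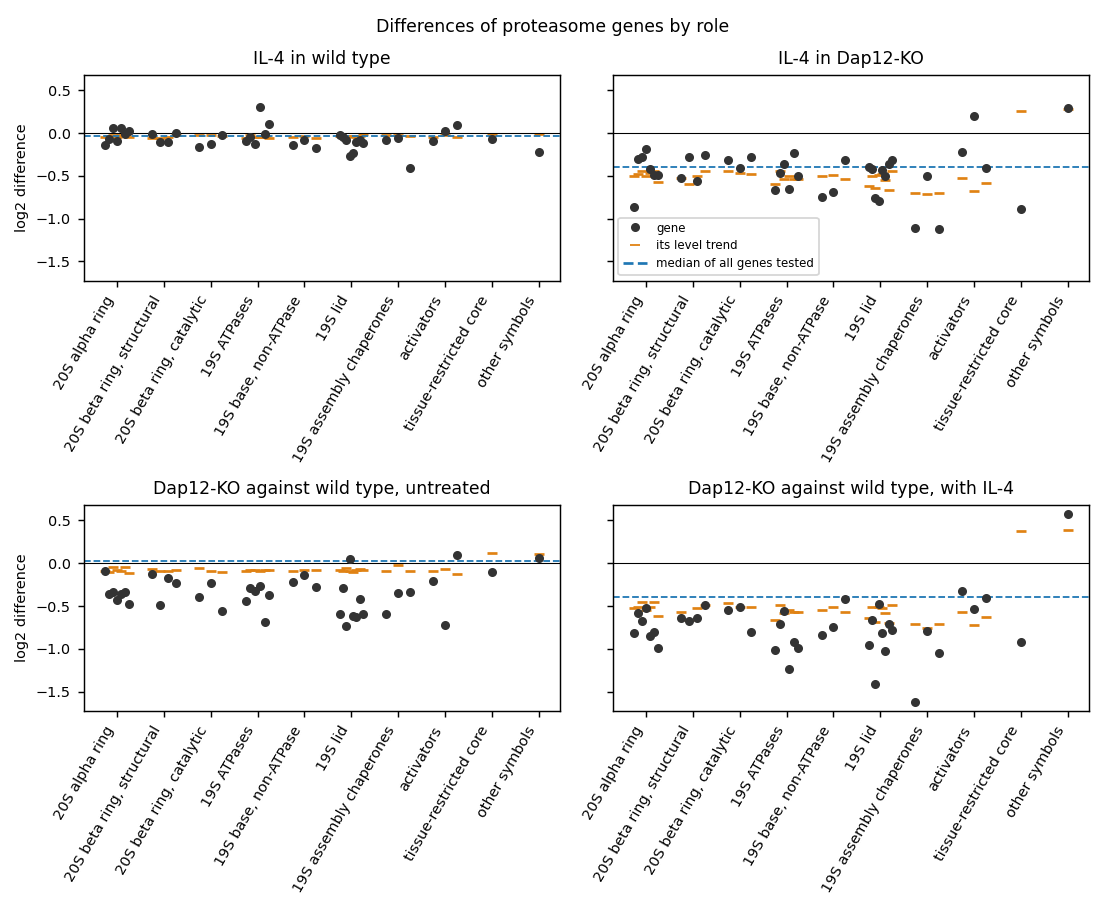
Log2 differences (vertical axis) of the 39 genes by role in the 4 comparisons of 2 arrays; each black point is a gene, the orange dash beside it the median of its 500 nearest genes in level, and the dashed line the median of all genes tested. In the untreated genotype comparison 36 points lie below 0 with orange dashes close to 0; in the IL-4 response of the array labelled Dap12-KO the points scatter about their orange dashes.

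With IL-4, the same direction was seen between genotypes on the other pair of arrays. Of 39 genes 38 had a negative difference, against 65.8% of all genes tested, with a median of -0.75 against -0.39. Among genes of the same level range 91.3% had a negative difference, with a median of -0.63. After subtraction of the level trend the median of the proteasome genes was -0.22, and 30 of 39 genes lay below the trend, against 49.7% of all genes. The untreated and IL-4 pairs share no array, and 29 of 39 genes lay below the trend in both, against 33.8% of all genes tested. At 2-fold 6 genes were lower and 0 higher, where 17.6% and 10.9% of all genes tested were, and 27 were at least 1.5-fold lower, where 38.9% were. Of genes of the same level range 19.2% were 2-fold lower and 54% at least 1.5-fold lower.

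The 6 genes came from the chaperones, the lid and the ATPases. Psmd5 read 10.23 in wild type with IL-4 and 8.61 on the IL-4-treated array labelled Dap12-KO, a 3.07-fold lower signal. Psmd7 read 10.59 and 9.19, and the ATPase Psmc4 12.53 and 11.30. The others, close to 2-fold, were Psmd10 (-1.04), Psmd12 (-1.03) and Psmc1 (-1.01). Further probe sets past the floor were not 2-fold lower: that of Psmc4 differed by -0.72, and those of Psmd7 by -0.68 and, in a dim one, 1.16. With cyclic loess none of the 6 reached 2-fold, and Psmd5, Psmd7 and Psmc4 differed by -0.89, -0.69 and -0.64. At the other end stood Psme1, Psme4 and Psmd4 with -0.33, -0.40 and -0.42, each above its level trend, and Psmc3ip with 0.57. All 3 measured activators lay above the trend here, whereas Psme3 lay at -0.65 from it without treatment. For Psme3 this rests on the brighter of 2 probe sets past the floor, since the other differed by -1.90. For Psme4 it rests on the brightest of 5, which differed least, while the others differed by -0.64 to -1.41. The 3 catalytic subunits Psmb5, Psmb6 and Psmb7 differed by -0.54, -0.51 and -0.80, and lay -0.08, 0.00 and -0.29 from their trend.

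**Figure D3:**
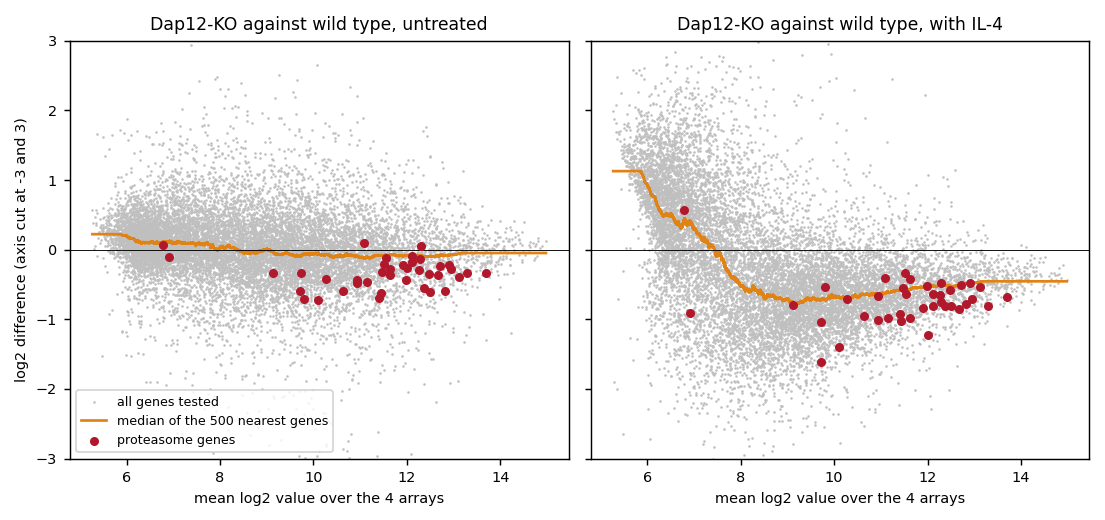
Log2 difference between genotypes (vertical axis) against the mean log2 value over the 4 arrays (horizontal axis) for all 12767 genes tested (grey) and the 39 proteasome genes (red), untreated on the left and with IL-4 on the right; the orange line is the median of the 500 nearest genes, and genes beyond 3 log2 units are outside the axis. The line is near 0 on the left and bends downward with level on the right, and 36 and 30 red points lie below it.

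Between both wild type arrays, proteasome genes differed little with IL-4. The median difference was -0.08 against -0.03 for all genes tested, and the standard deviation among the 37 constitutive genes was 0.12 against 0.38 among genes of their level range. No gene was 2-fold higher or lower, where 1.21% and 1.25% of all genes tested were. A negative difference was seen in 31 of 39 genes, against 56.3% of all genes, and 26 lay below the level trend, against 49.9%. The highest was Psmc4, from 12.22 untreated to 12.53 with IL-4, followed by Psmc6 (0.11), Psme4 (0.09) and Psma3 (0.06). Psmd10, a chaperone of base assembly also known as gankyrin, was the lowest, from 10.27 to 9.87. Psmd8, Psmd11 and Psmc3ip differed by -0.26, -0.23 and -0.22. The catalytic subunits Psmb5, Psmb6 and Psmb7 differed by -0.16, -0.13 and -0.02.

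Between both arrays labelled Dap12-KO, IL-4 went with lower values of most proteasome genes, at about the size seen for other genes of their level. Of 39 genes 37 had a negative difference, against 66.1% of all genes, with a median of -0.42 against -0.40. After the level trend was subtracted the median was 0.06, and 26 of 39 genes lay above the trend, against 50.1%. The IL-4 responses of both genotypes share no array, and 11 of 39 genes lay below the trend in both, against 29.3% of all genes tested. With cyclic loess the median was 0.10. At 2-fold 2 genes were lower and 0 higher, where 17.6% and 8.04% of all genes tested were, and 10 were at least 1.5-fold lower, where 38.8% were. Of genes of the same level range 89.5% had a negative difference, 18.8% were 2-fold lower and 50.9% at least 1.5-fold lower. The 2 genes were the chaperones Psmd10, from 9.94 untreated to 8.82 with IL-4, and Psmd5, from 9.72 to 8.61. Next came Psma8 (-0.89) and Psma1 (-0.86). Psme3 went from 9.40 to 9.59 and lay 0.87 above its level trend, the largest distance above it among the 39 genes. Psmc3ip differed by 0.29, and Psma4 and Psme1 by -0.19 and -0.22.

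The IL-4 response on arrays labelled Dap12-KO minus that in wild type was negative for 37 of 39 genes, against 66% of all genes tested, with a median of -0.40 against -0.36. It was 0.05 after subtraction of the level trend, with 21 of 39 genes above the trend against 50.2% of all genes. At 2-fold 1 gene was lower, where 14.8% of all genes were, and 0 were higher, where 8.15% were, while 9 were at least 1.5-fold lower, where 35.3% were. Of genes of the same level range 89.9% were negative and 44.6% at least 1.5-fold lower. The gene at 2-fold was Psmd5, whose responses of -0.09 and -1.11 differed by -1.02. Psmc4 (-0.97), Psma8 (-0.81) and Psma1 (-0.72) followed at the low end, and Psmc3ip (0.51), Psme3 (0.18), Psma4 (-0.09) and Psme1 (-0.13) stood at the high end.

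**Figure D4:**
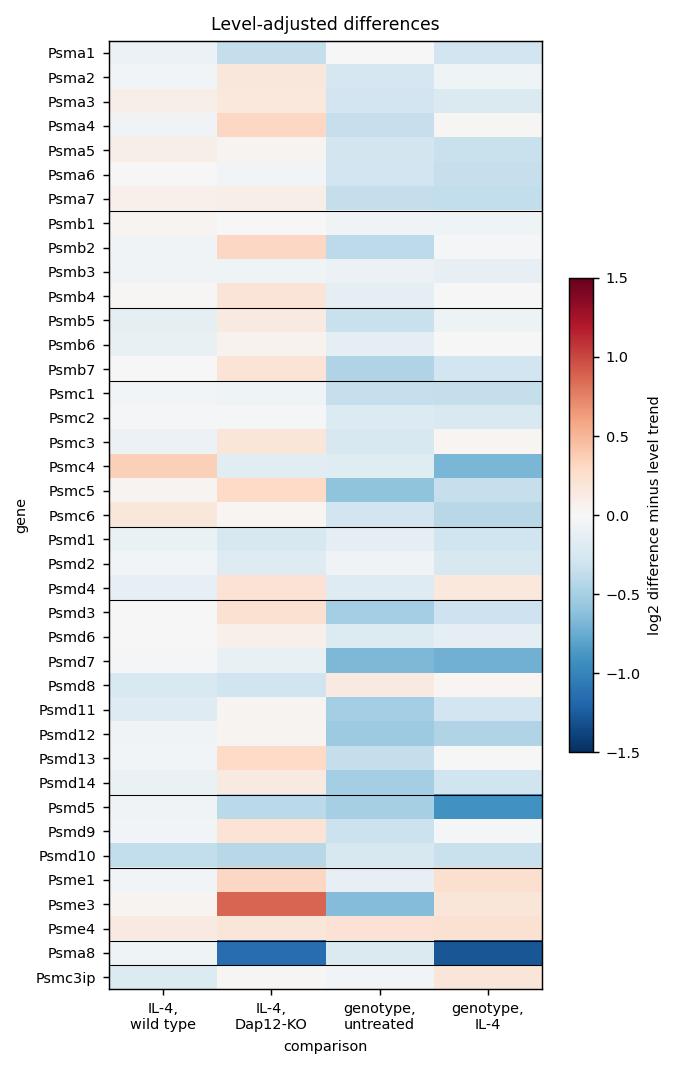
Level-adjusted log2 differences (colour; blue is below the level trend and red above) of the 39 proteasome genes (rows, grouped by role) in the 4 comparisons of 2 arrays (columns). The untreated genotype column is blue in 36 rows; the IL-4 column of wild type is pale, and the darkest cells are Psma8 (-1.15 and -1.29) in the IL-4 columns of the narrower array.

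The IL-4 contrast could also be fitted over both genotypes with limma, with genotype as a block and 1 residual degree of freedom. Of 39 proteasome genes 0 passed at an adjusted p under 0.05, where 1.64% of the 12767 genes did, and 0 had an unadjusted p under 0.05, where 9.76% did. The lowest p belonged to Psmd10, with a mean response of -0.76 ± 0.42 (SE; adjusted p = 0.577, limma). The genotype term of the same fit, added after the data had been seen, passed 0 of 39 at an adjusted p under 0.05, where 3.56% of all genes passed. At an unadjusted p under 0.05 it passed 2, Psmd5 (-1.11 ± 0.42, adjusted p = 0.122, limma) and Psmd7 (-1.07 ± 0.42, adjusted p = 0.143, limma), where 17.2% of all genes passed. limma gave every gene the same standard error, and the smallest genotype difference that passed among all genes was 1.32 in size. The 1 residual degree of freedom is the difference of IL-4 responses between genotypes, and the narrower array enters it. These p-values therefore measure that departure over 4 arrays, which may be technical, and no spread between replicates.

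Probe sets of a gene read different stretches of its transcripts, and 20 proteasome genes had more than 1 past the floor. In the untreated genotype comparison the probe sets of a gene differed from each other by 0.23 at the median. Counted singly, 63 of 74 probe sets were lower on the array labelled Dap12-KO, against 50.6% of all single-gene probe sets past the floor. With IL-4 68 of 74 were, against 68.2%. Of genes in the level range of the constitutive genes, each by its brightest probe set, 57.7% were lower untreated and 91.3% with IL-4. Psmd11 was the one gene whose probe sets disagreed by over 1 log2 unit without treatment. Of its 5 past the floor, 3 differed by -0.61, -0.99 and -0.89, another, at 11.38 in untreated wild type, by 0.04, and a dim one by 0.35. With IL-4 the same 3 differed by -0.81, -2.04 and -1.56 between genotypes, and the others by 0.01 and 0.56. In that comparison 10 genes had probe sets over 1 log2 unit apart, namely Psma3, Psma6, Psmb1, Psmc3ip, Psmc6, Psmd7, Psmd9, Psmd11, Psme3 and Psme4. For Psmc6 all 3 went the same way, at -2.68, -1.72 and -0.98, and the brightest, used here, differed least. Both probe sets of Psme3 past the floor were lower without treatment, at -0.88 and -0.72, but after IL-4 on the arrays labelled Dap12-KO one differed by -1.02 and the other by 0.20. The position of Psme3 above its trend in that response therefore rests on 1 of 2 probe sets. Of the 5 probe sets of Psme4 past the floor, all were lower with IL-4 between genotypes, and 3 were without treatment, with a range of -0.38 to 0.13. Both probe sets of Psmc3ip past the floor had opposite signs in every comparison, with 0.57 for the one used and -0.66 for the other between genotypes with IL-4.

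Other genes of the pathway were taken from 6 lists drawn up by function, and 26 of 34 had a single-gene probe set past the floor. Without treatment 19 of the 26 had a negative difference between genotypes, which is 73.1% against 47.3% of all genes tested, with a median of -0.24. Below the level trend lay 17, or 65.4% against 49.9%. At 2-fold 0 were lower or higher, where 3.41% and 3.12% of all genes were. Among core assembly factors and the inhibitor Psmf1, 4 of 6 were lower: Pomp, the maturation factor of the core, read 12.21 in wild type and 11.69 on the array labelled Dap12-KO, and the assembly chaperones Psmg1, Psmg3 and Psmg4 differed by -0.48, -0.47 and -0.68. Psmg2, which pairs with Psmg1, differed by 0.02, and Psmf1 by 0.15. Of 7 shuttle and unfolding factors 6 were lower, led by Nploc4 (-0.74), a cofactor of the segregase Vcp, with Ubqln2 at 0.37. All 6 further components of the regulatory particle and proteins bound to it were lower, between -0.55 and -0.10. Nfe2l1, which drives proteasome genes when proteasome activity is short, read 10.49 in wild type and 9.78 on the array labelled Dap12-KO. Nfe2l2 and Ngly1 differed by 0.06 and 0.25. The 3 interferon-induced catalytic subunits did not share the direction: Psmb8, Psmb9 and Psmb10 differed by 0.03, 0.42 and -0.05 untreated and by -0.30, 0.39 and 0.46 with IL-4, and all 3 lay above their level trend in both.

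With IL-4 the median difference of the pathway genes between genotypes was -0.82, against -0.39 for all genes tested. Among genes in the level range of the constitutive genes it was -0.63. After subtraction of the level trend the pathway median was -0.21, close to the -0.14 without treatment. Of the 26 pathway genes, 18 lay below the trend, which is 69.2% against 49.7% of all genes tested. At 2-fold 4 were lower, or 15.4% against 17.6%, and 0 higher, where 10.9% were. Psmg2 (-1.41) and Nploc4 (-1.32) were foremost. Between the wild type arrays none of the 26 differed by 2-fold, with Psmg4 and Psmg2 at the ends with -0.42 and 0.42. Between both arrays labelled Dap12-KO 3 were 2-fold lower, or 11.5% against 17.6% of all genes, and 0 higher, where 8.04% were. They included Ubqln2 at -1.20 and Ngly1, which processes NFE2L1, at -1.16. Above the level trend lay 17 of 26, or 65.4% against 50.1%. In the difference of responses Psmg2 (-1.42) and Ubqln2 (-1.21) were furthest from 0. Uba6 was the only one of 6 ubiquitin and activating enzyme genes with a value, and differed by -0.26 untreated and -0.89 with IL-4 between genotypes.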

How the data were processed

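The deposited values are log2 probe set levels of 1-colour Affymetrix arrays. The submitters' processing notes name RMA, without a version. RNA was amplified in 2 cycles before labelling, per the labels' protocols, which favours the 3′ part of transcripts. Samples were grouped by title. Gene names come from the platform annotation in GEO, and Entrez identifiers gave current symbols (34741 of 34945 single-gene probe sets; RefSeq, GRCm38.p6). Another 932 of the 45101 probe sets named several genes, 9160 none and 64 were controls. Array signal gives no depth, and the number of arrays limits the precision.

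Computed here were log2 differences, the level trend, counts at 2-fold and limma 3.58.1 fits (lmFit, eBayes, Benjamini-Hochberg; R 4.3.3), with Python 3.11.15, numpy 2.4.6 and pandas 2.3.3. Both statistics were tested on simulated data with independent noise of equal spread. The limma simulation held no genotype effect and no narrower array, so it checks the code and cannot vouch for the fit on these data. The members and lists were chosen with earlier results of these data known. Named were all members by role, the 4 highest and 4 lowest of each comparison, those at 2-fold, those with probe sets over 1 log2 unit apart, Tyrobp, and the 2 pathway genes furthest from 0 per comparison. Further pathway genes, the values shown for single probe sets and the promoters printed were chosen after their values were seen, as were counts of negative differences, of arrays in order and of single probe sets. The alternatives were other floors, cyclic loess (3 iterations), quantile normalization, median centring, the median over probe sets, 1.5-fold, other numbers of nearest genes and constitutive genes only.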

Additional observations from a re-analysis of the deposited data

Results flagged for a closer look

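For 3 genes IL-4 went with opposite signs in the genotypes, each by more than 0.1 log2 units, and the difference was not tested. Psmc4 differed by 0.31 in wild type and by -0.66 on the arrays labelled Dap12-KO, a difference of -0.97, and Psmc6 by 0.11 and -0.51, a difference of -0.62. The other probe set of Psmc4 past the floor differed by 0.03 and -0.35, within 0.1 log2 units of 0 in wild type. The dimmer probe sets of Psmc6 differed by 0.31 and -0.67, and by 0.42 and -1.56. Psmc3ip, which is no subunit, differed by -0.22 and 0.29, a difference of 0.51. Its other probe set past the floor had the signs turned, with 0.22 and -0.25, a difference of -0.47. After cyclic loess Psmc4 had 0.35 and -0.12, and Psmc3ip -0.17 and 0.31. Psmc6 had 0.15 and 0.06, so that its opposite signs were gone in the probe set used.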

How the results depend on the processing

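Under the alternatives 116 summary values stayed within 0.1 log2 units (medians) or 1.5 times (counts), 20 moved further and 4 changed sign. The untreated genotype median ranged from -0.34 to -0.26 and the wild type IL-4 median from -0.08 to -0.04, and between 2 and 3 genes lay above the level trend in the former. Values that use the narrower array depended on the scaling. The median IL-4 response on arrays labelled Dap12-KO was 0.10 with cyclic loess, 0.056 with quantile normalization and -0.54 with median centring. The genotype median with IL-4 was -0.20, -0.22 and -0.90, and the difference of responses 0.11, 0.11 and -0.54. Members 2-fold lower numbered 0 in all 3 with cyclic loess, where 6.07%, 5.51% and 5.75% of all genes were. With quantile normalization they were 0, 1 and 0, where 8.78%, 7.93% and 7.94% were. Median centring gave 11 for genotype with IL-4 (24.4% of all genes) and 2 for the difference of responses (20.7%). The median over probe sets gave 4 for the IL-4 response labelled Dap12-KO (14.7%) and 4 for the difference of responses (12.8%). At 1.5-fold the counts were 10 (IL-4, Dap12-KO), 8 (genotype, untreated), 27 (genotype, IL-4) and 9 (difference of responses), all lower. With the median over probe sets the limma genotype term passed 2 proteasome genes, Psme3 (adjusted p = 0.0176, limma) and Psmc6 (adjusted p = 0.0427, limma), where 4.61% of all genes passed. With cyclic loess it passed 0 of all genes tested, with 1996 at an unadjusted p under 0.05. The limma IL-4 term passed 0 proteasome genes under the alternatives run, but with no floor, cyclic loess or quantile normalization it passed 0 of all genes, with 962, 814 and 598 at an unadjusted p under 0.05. Without the genotype block it passed 7 of all genes. Leaving out a genotype leaves no residual degrees of freedom, so each genotype's response stands as a value with no test. A block by replicate could not be fitted, since each group has 1 array. The cause of these shifts was not tested.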
